A study of Bos taurus with 9 samples.

Results

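The regions described here are 973 stretches of the cattle genome that carried a peak of H3K9ac after weaning, had none before weaning, and lay outside the peaks of H3K9me3 at both time points. They were chosen from the 2127 H3K9ac peaks after weaning by position alone. A peak was a member when it shared no base with any H3K9ac peak before weaning and none with any H3K9me3 peak before or after weaning. The 973 members are 45.7% of the H3K9ac list after weaning, a share that the rule itself fixes. The other peaks of that list fell into 834 that were kept (they touched an older H3K9ac peak) and lay outside H3K9me3, 212 that were gained but touched H3K9me3, and 108 that were kept and touched H3K9me3.

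The peaks came from chromatin immunoprecipitation followed by sequencing (ChIP-seq) on rumen epithelium of Holstein calves, sampled at 2 time points, before and after weaning, when the diet moves from milk to solid feed. At each time point 1 library was made for each of 4 targets (H3K9ac, H3K27ac, RNA pol II and H3K9me3), and 1 input library served as the background. The 8 lists hold peak positions only, so presence, position and width are the measurements, and with 1 library per target and time point no test of weaning could be made. The number and the age of the calves behind each library are not given in the sources used here.

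Acetylation of histone H3 at lysine 9 is placed by acetyltransferases mostly at active promoters and the enhancers close to them, and acetylation at lysine 27 marks active promoters and enhancers more widely. RNA pol II transcribes the protein-coding genes and gathers at active start sites, whereas H3K9me3 marks silent, compact chromatin. Butyrate, which the microbes of the growing rumen produce from solid feed, inhibits histone deacetylases, so histone acetylation in this epithelium is of interest around weaning.

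Both H3K9ac libraries were run on lane 1 of the flow cell and the H3K27ac and RNA pol II libraries on lane 2, while H3K9me3 was on lane 2 before and lane 1 after weaning. The lists differed much in length. H3K9ac had 14384 peaks before and 2127 after weaning, H3K27ac 74249 and 30446, RNA pol II 2056 and 738, and H3K9me3 2410 and 4170. The members were thus peaks absent from a longer older list and present in a shorter later one. With the older H3K9ac list cut to its 2127 widest peaks (429 bp or more), a setting that changes both the number and the width of the older peaks, the rule gave 1490 gained peaks. The labels and the text of the study name different time points for the shorter RNA pol II list. The labels were followed, and every statement on RNA pol II at a time point rests on them. Intervals given here are 95% intervals for counting error within single libraries, and neighbouring peaks are not independent.

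H3K27ac was found at the gained peaks less often than at the kept peaks of the same list when 1 shared bp counted as touching, and before weaning more often under a stricter overlap. Of the 973 members, 661 touched an H3K27ac peak before weaning, which is 67.9% (64.9 to 70.8), beside 71.8% of all H3K9ac peaks after weaning. After weaning 531 members touched an H3K27ac peak, or 54.6% (51.4 to 57.7), beside 69.3% of the whole list. RNA pol II touched 12 members before weaning, 1.23% (0.707 to 2.14), beside 16.5% of the whole list, and 1 member after weaning, 0.103% (0.0181 to 0.580), beside 13.4%. The rule bears on that background, since 278 of the 284 H3K9ac peaks on RNA pol II after weaning touched H3K9me3, and 244 of 350 of those before weaning. Over all 1807 H3K9ac peaks outside H3K9me3 the shares were 5.87% before and 0.332% after weaning. The share of members before weaning was 3.49% with the older H3K9ac list cut to its widest peaks, and after weaning it was 0.709% (7 of 987) with only the later H3K9me3 list in the rule.

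The shares with H3K27ac depended on the overlap asked for. A reciprocal overlap of 50%, in which the shared bases make up at least that part of both peaks, was met before weaning by 256 members (26.3%), beside 18.1% of the whole list, and after weaning by 257 (26.4%), beside 35.0%. For RNA pol II after weaning it was met by 0% of the members, beside 10.1% of the whole list. Such an overlap also asks that both peaks be of similar width.

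**Figure D1:**
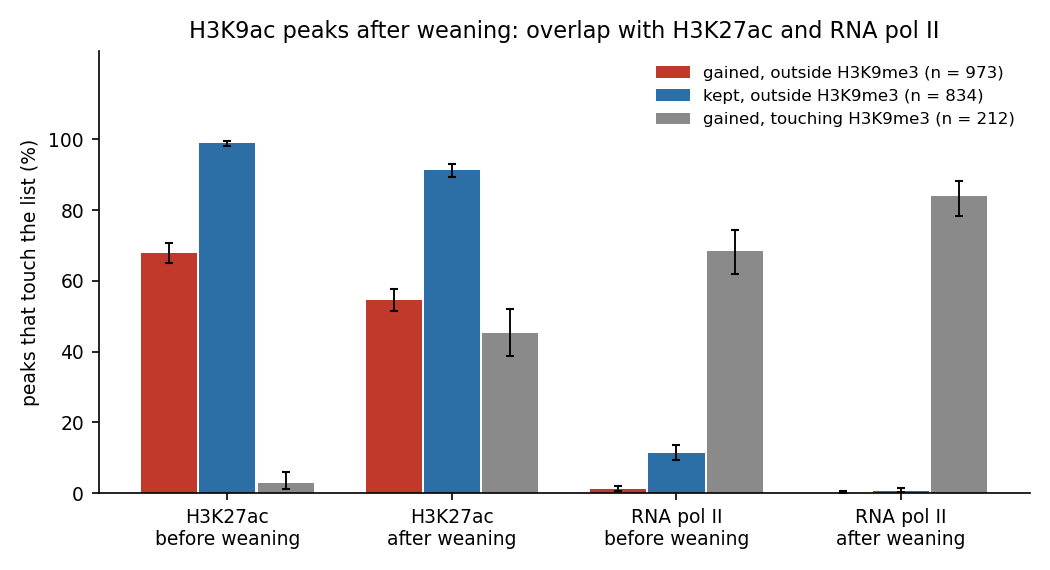
Bars give the percentage of H3K9ac peaks after weaning that touch each list named on the x axis (1 bp shared or more), for gained peaks outside H3K9me3, kept peaks outside H3K9me3 and gained peaks that touch H3K9me3, and error bars are 95% Wilson intervals. The gained peaks outside H3K9me3 lie between the other groups for H3K27ac before weaning (67.9% against 98.9% and 2.83%) and are at 1.23% and 0.103% for RNA pol II.

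Kept peaks outside H3K9me3, which come from the same library, touched the other marks more often in 3 of the 4 lists, and for the fourth the interval of the difference included 0. Before weaning 98.9% of them (98.0 to 99.4) touched H3K27ac, so the difference, gained minus kept, was -31.0 percentage points (-34.0 to -28.0). The rule sets kept peaks on older H3K9ac, and of all older H3K9ac peaks 90.02% touched H3K27ac before weaning. The part of this in the difference was not tested. With a reciprocal overlap of 50% the order was the opposite, at 12.5% of the kept peaks and 26.3% of the gained ones (difference 13.8 points, 10.2 to 17.4). After weaning 91.4% of the kept peaks (89.3 to 93.1) touched H3K27ac, a difference of -36.8 points (-40.4 to -33.0), or -13.8 points with a reciprocal overlap of 50%. RNA pol II before weaning was at 11.3% of the kept peaks (9.30 to 13.6), a difference of -10.04 points (-12.4 to -7.87). For RNA pol II after weaning the shares were 0.600% and 0.103%, and the interval of the difference, -1.30 to 0.0909 points, included 0.

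The gained peaks that touched H3K9me3 had another makeup. Only 6 of those 212 peaks, 2.83% (1.30 to 6.04), touched H3K27ac before weaning, while 145 (68.4%, 61.9 to 74.3) touched RNA pol II before and 178 (84.0%, 78.4 to 88.3) after weaning. For H3K27ac after weaning both kinds of gained peak were closer, at 54.6% and 45.3%, a difference of 9.29 points (1.87 to 16.5), which turned to -9.91 points (-17.1 to -3.10) with a reciprocal overlap of 50%. Without the stretch from 50 to 52 Mb on chromosome 17, which held many of the gained peaks on H3K9me3, it was 6.24 points (-2.18 to 14.6), and 6.25 points (-1.57 to 13.9) when peaks within 1 kb counted as touching in the rule. With RNA pol II after weaning at 1 of 973 members outside H3K9me3 and at 178 of 212 gained peaks on it, the difference, outside minus touching, was -83.9 points (-88.2 to -78.3).

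The H3K27ac peaks before and after weaning were then combined for each member. H3K27ac was present at both time points at 456 members (46.9%, 43.7 to 50.01), at 205 (21.1%, 18.6 to 23.7) before weaning only, at 75 (7.71%, 6.19 to 9.56) after weaning only, and at 237 (24.4%, 21.8 to 27.2) at neither. Over all 2127 H3K9ac peaks after weaning, H3K27ac was at 58.8% at both time points, at 13.1% before weaning only, at 10.5% after weaning only and at neither for 17.6%, and the H3K27ac list itself was shorter after weaning. With a reciprocal overlap of 50%, 156 members had H3K27ac before weaning only and 157 after weaning only, which is 16.0% and 16.1%, beside 8.93% and 25.9% of the whole list. The members thus lay above the whole list for H3K27ac before weaning only at both overlaps, and below it for H3K27ac after weaning only. The whole list includes peaks on H3K9me3, which the rule leaves out. Of these, 91 gained and 52 kept peaks had H3K27ac after weaning only at 1 shared bp. Among kept peaks outside H3K9me3, 8.27% had it before weaning only and 0.719% after weaning only, both below the members. With a reciprocal overlap of 50% these shares were 3.48% and 31.2%, the latter above the members. Of the 661 members with H3K27ac before weaning, 69.0% (65.4 to 72.4) still touched it after weaning, compared with 91.6% (89.5 to 93.3) among the kept peaks. Read in the other direction, 85.9% (82.7 to 88.6) of the 531 members with H3K27ac after weaning had it before, compared with 99.2% (98.3 to 99.6) among the kept peaks. With a reciprocal overlap of 50% the former shares were 39.1% of gained and 72.1% of kept peaks, and the latter 38.9% and 22.4%, the opposite order. The rule sets kept peaks on older H3K9ac, of which 90.02% touched H3K27ac before weaning at 1 shared bp. The part of this in these differences was not tested.

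The opposite group, older H3K9ac peaks that were lost after weaning and lay outside H3K9me3, gives a second reference. There were 13406 of them, and 90.1% (89.5 to 90.6) touched H3K27ac before weaning, more than of the gained peaks (difference, gained minus lost, -22.1 points, -25.2 to -19.2). These lost peaks are older H3K9ac peaks, which the rule keeps apart from the members, and come from another library, so that difference is a description. After weaning 54.3% of the lost peaks (53.5 to 55.1) touched H3K27ac and 54.6% of the gained ones, a difference of 0.269 points (-2.98 to 3.49). Both comparisons changed with a reciprocal overlap of 50%, where the difference was -0.916 points (-3.69 to 2.04) before and -8.53 points (-11.3 to -5.56) after weaning. After weaning the difference was -16.7 points with the older list cut to its widest peaks and 4.46 points without members of the lowest width. RNA pol II before weaning was at 5.89% of the lost peaks (5.51 to 6.30), more than of the gained peaks (difference -4.66 points, -5.33 to -3.67). After weaning it was at 0.0821% of the lost and 0.103% of the gained peaks, and the interval of the difference, -0.0859 to 0.499 points, included 0. Of the 12073 lost peaks with H3K27ac before weaning, 59.7% still touched it after weaning. Among the members with H3K27ac before weaning this share was 69.0%.

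The H3K27ac peaks under the members were wider than usual for their lists but narrower than those under kept peaks. Before weaning the touched H3K27ac peak had a median width of 519 bp (483 to 578) at gained and 1029 bp (981 to 1087) at kept peaks, against 343 bp over the whole list. After weaning the medians were 407 bp (386 to 434) and 533 bp (506 to 564), against 290 bp. Wide peaks are touched more easily, and how much of the excess over the list this makes was not tested. Where a member had H3K27ac at both time points, the H3K27ac peak was narrower after weaning at 323 of 456 members and wider at 127. The median went from 629.5 bp (583 to 697) to 428.5 bp (406 to 454), and the median ratio of the widths, after to before, was 0.747. At the 756 kept peaks with H3K27ac at both time points this ratio was 0.544.

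Most members that touched H3K27ac lay within it. Before weaning 451 of the 661 (68.2%) were wholly inside an H3K27ac peak, and after weaning 297 of the 531 (55.9%). The members had a median width of 230 bp, and the H3K27ac peaks they touched 519 bp before and 407 bp after weaning. The share wholly inside is not given for other H3K9ac peaks, so it cannot be called particular to the members. Only 4 members had the same start and end as an H3K27ac peak after weaning, and 1 as an H3K27ac peak before weaning. Members without H3K27ac were also placed by their distance to it. The 312 members that did not touch H3K27ac before weaning lay a median of 3787 bp (2511 to 6011) from the nearest such peak, and 81 of them (25.96%) within 1 kb. For the 442 without H3K27ac after weaning the median was 5040.5 bp (3790 to 6168), with 117 (26.5%) within 1 kb. Nearness was not particular to the members. With H3K27ac extended by 1 kb, 17.7% of the members and 13.0% of the whole list had it at neither time point. At 1 shared bp these shares were 24.4% and 17.6%.

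The distance to the nearest older H3K9ac peak was measured for each member. A peak that overlaps an older one is no member by the rule, so the distances cannot tell whether older sites were extended. A distance of 1 bp means that both peaks adjoin. The median distance was 15515 bp (13000 to 19047), with quartiles at 2290 and 70935 bp, and the range ran from 1 to 1793183 bp. There were 168 members (17.3%, 15.0 to 19.8) within 1 kb, 246 (25.3%) between 1 and 10 kb, 371 (38.1%) between 10 and 100 kb, and 188 (19.3%, 16.96 to 21.9) more than 100 kb away. Most members lay farther from older H3K9ac than the width of a peak, although separation as such was set by the rule. Against the 2127 widest older peaks, for the gained peaks that this shorter list leaves, the median was 182352 bp. It was 26307.5 bp when members had to lie over 1 kb from older H3K9ac and from H3K9me3.

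**Figure D2:**
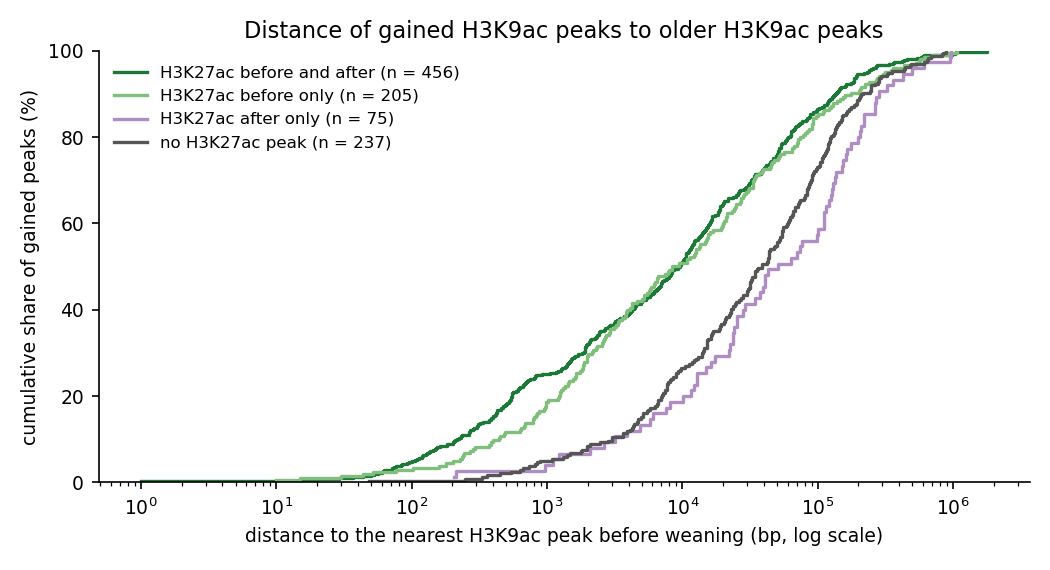
Cumulative percentage of the gained peaks by distance to the nearest H3K9ac peak before weaning (bp, log scale), with 1 line for each H3K27ac pattern. The lines of the 456 members with H3K27ac at both time points and the 205 with H3K27ac before weaning only lie to the left, with medians of 9482 and 8330 bp, and those of the members without older H3K27ac to the right, with medians of 38745 bp (no H3K27ac) and 50480 bp (after weaning only).

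Members that touched older H3K27ac lay closer to older H3K9ac. The median distance was 9482 bp (6849 to 11713) with H3K27ac at both time points and 8330 bp (5184 to 15528) with H3K27ac before weaning only. It was 50480 bp (25456 to 111774) with H3K27ac after weaning only and 38745 bp (28184 to 52655) with none. The interval of each pattern with H3K27ac before weaning lay below those of both patterns without it. Since older H3K9ac and older H3K27ac occur together, such an order across members is a description and not a test.

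The share of members with H3K27ac before weaning was lower in each farther distance class. It was 91.1% (85.8 to 94.5) within 1 kb, 74.8% (69.0 to 79.8) up to 10 kb, 62.5% (57.5 to 67.3) up to 100 kb and 48.9% (41.9 to 56.0) beyond. H3K27ac after weaning followed another course. It was at 70.2% (62.9 to 76.6) of the members within 1 kb, and at 52.4% (46.2 to 58.6), 51.2% (46.1 to 56.3) and 50% (42.9 to 57.1) in the farther classes, whose intervals overlapped. More than 100 kb from older H3K9ac, the shares before and after weaning were therefore nearly equal, 92 and 94 of 188 members. Members with no H3K27ac at either time point made up 7.14% (4.13 to 12.1) of the nearest class and 34.0% (27.6 to 41.1) of the farthest. With a reciprocal overlap of 50% the nearest class had the lowest share instead of the highest, and only the 3 farther classes kept the order. H3K27ac before weaning was then at 17.3% (12.3 to 23.7) of the members within 1 kb, 32.5% (26.97 to 38.6), 29.1% (24.7 to 33.9) and 20.7% (15.6 to 27.1) in the farther classes. After weaning the higher share in the nearest class was not seen either, at 26.8% within 1 kb and 29.3%, 24.3% and 26.6% farther away. The median width of the members was between 227.5 and 231 bp in all 4 classes.

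**Figure D3:**
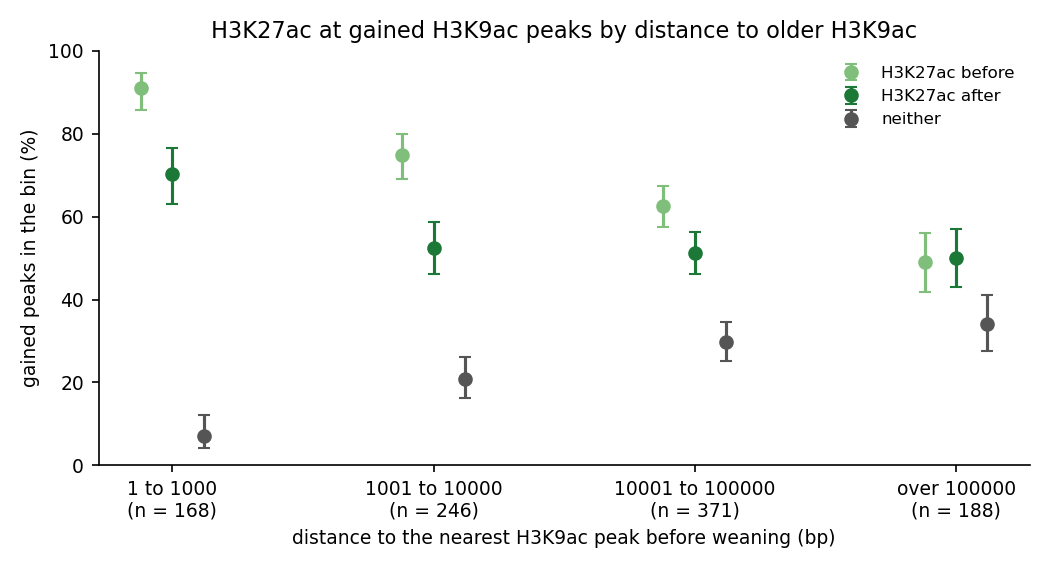
Points give the percentage of gained peaks that share at least 1 bp with H3K27ac before weaning, after weaning or at neither time point in 4 classes of distance to the nearest older H3K9ac peak (bp), with 95% Wilson intervals. H3K27ac before weaning goes from 91.1% to 48.9% with distance, while H3K27ac after weaning is 70.2% in the nearest class and 50% to 52.4% in the others.

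Some members shared an H3K27ac peak with older H3K9ac, which distance bars for most of them. Of the 661 members on H3K27ac before weaning, 85 (12.9%, 10.5 to 15.6) touched an H3K27ac peak that also touched an older H3K9ac peak. All 85 lay within 1 kb of older H3K9ac, where they were 55.6% (47.6 to 63.2) of the 153 members on such H3K27ac. After weaning it was 43 of 531 (8.10%, 6.07 to 10.7), again all within 1 kb, where they were 36.4% (28.3 to 45.4) of 118. The 661 members touched 659 different H3K27ac peaks. The older H3K9ac peak nearest to a member was mostly one that had been lost, for 888 of 973 members (91.3%, 89.3 to 92.9), against 93.4% (93.0 to 93.8) of all H3K9ac peaks before weaning. Among the 168 members within 1 kb it had been lost for 152 (90.5%, 85.1 to 94.1). Neither share was above that of all older peaks.

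At the edge of the rule, 3 members lay within 10 bp of an older H3K9ac peak and 29 within 100 bp. The 3 nearest were at chromosome 3, positions 21487662 to 21487868 and 108651638 to 108651837, each 1 bp from an older peak, and at chromosome 28, positions 5450947 to 5451286, 10 bp away. Just outside the rule, no kept peak shared fewer than 17 bp with an older peak (chromosome 19, 39732307 to 39732636, and chromosome 25, 3472012 to 3472211). On the H3K9me3 side, the closest member lay 13 bp from an H3K9me3 peak (chromosome 18, 57704737 to 57704936), and the gained peak with the least overlap shared 4 bp (chromosome 18, 51000770 to 51001085). The 3 nearest members all lay on H3K27ac from before weaning. At the first, an older H3K9ac peak of 368 bp ended at 21487661 and the gained peak began on the next base, both inside an H3K27ac peak at 21485974 to 21488932 before weaning and at 21487091 to 21488825 after weaning.

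The 3 members farthest from older H3K9ac were at chromosome 12, positions 75163505 to 75163704 (1793183 bp away), chromosome 2, 118100450 to 118100649 (1067152 bp), and chromosome 5, 39856950 to 39857229 (1057108 bp). Each touched H3K27ac before weaning. At the sites on chromosomes 12 and 5 H3K27ac was also present after weaning, in peaks of 631 and 320 bp, whereas at the site on chromosome 2 the nearest H3K27ac peak after weaning was 1677 bp away. Distance from older H3K9ac thus did not mean distance from H3K27ac at these sites.

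The gained peaks were narrow. Their median width was 230 bp (226 to 233), with quartiles at 205 and 268 bp and a maximum of 636 bp, and together they covered 243 kb. Kept peaks outside H3K9me3 had a median of 250.5 bp (246 to 255) and a maximum of 819 bp, and gained peaks on H3K9me3 a median of 270 bp (255 to 290). The lowest width in the list, 200 bp, was found for 197 members (20.2%, 17.8 to 22.9), against 14.7% of the whole list and 11.5% (9.52 to 13.9) of the kept peaks. Members with H3K27ac at both time points had a median width of 238 bp (233 to 245) and those with none 214 bp (206 to 221).

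**Figure D4:**
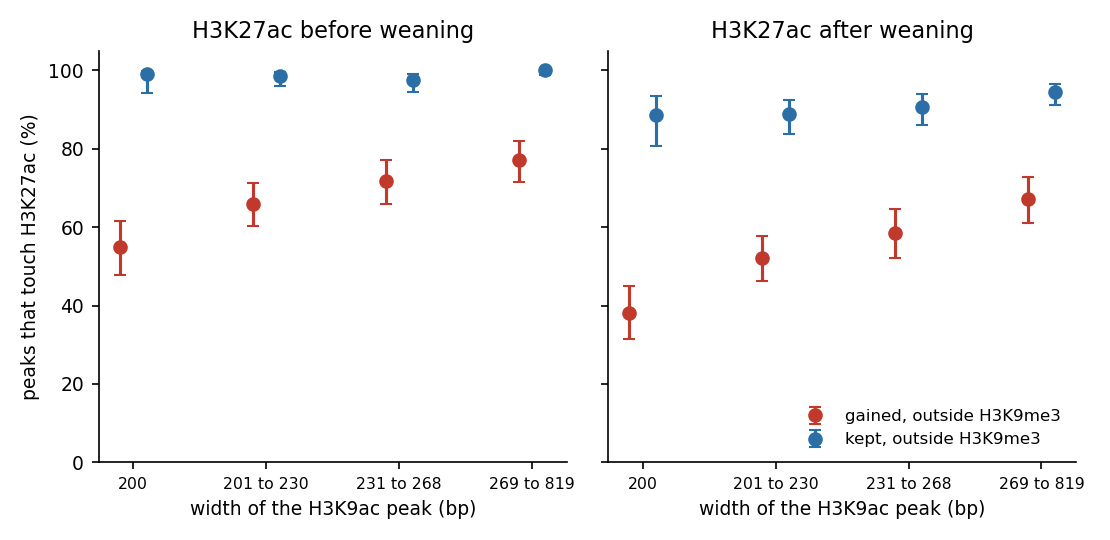
Points give the percentage of gained and of kept H3K9ac peaks outside H3K9me3 that touch H3K27ac before weaning (left) and after weaning (right), by width of the H3K9ac peak (bp), with 95% Wilson intervals. Gained peaks go from 38.1% at 200 bp to 67.2% at 269 bp and more for H3K27ac after weaning, and are below the kept peaks in every width class at this overlap of 1 bp.

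Since wider peaks can touch others more easily, gained and kept peaks were compared within classes of width. H3K27ac after weaning was at 38.1% (31.6 to 45.0) of the members of 200 bp, 52.04% (46.3 to 57.7) of those of 201 to 230 bp, 58.5% (52.2 to 64.5) of those of 231 to 268 bp and 67.2% (61.1 to 72.8) of the wider ones. Among kept peaks the shares were 88.5%, 88.8%, 90.7% and 94.4%. The gained peaks were lower in each class, with a difference of -50.5 points (-58.6 to -39.9) at 200 bp and of -27.1 points (-33.6 to -20.7) in the widest class. H3K27ac before weaning had the same order, from 54.8% (47.8 to 61.6) to 77.2% (71.5 to 82.0) of the members against 97.6% or more of the kept peaks in each class. With a reciprocal overlap of 50% the gained peaks were still lower in each class after weaning, from 10.2% to 40.2% against 24.0% to 55.5% of the kept peaks. Before weaning they were higher in each class, from 16.2% to 39.0% against 4.17% to 19.1%.

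The 5 widest members were at chromosome 4, 52210314 to 52210949 (636 bp), chromosome 15, 75520738 to 75521352 (615 bp), chromosome 5, 26112579 to 26113163 (585 bp), chromosome 10, 85612199 to 85612779 (581 bp), and chromosome 6, 59078786 to 59079313 (528 bp). The latter 4 touched H3K27ac at both time points. The widest one touched a narrow H3K27ac peak of 288 bp before weaning, and the nearest H3K27ac peak after weaning was 24062 bp away. On chromosome 10 the H3K27ac peak was 1198 bp before and 1455 bp after weaning, and on chromosome 15 it was 1116 and 839 bp. None of the 5 touched RNA pol II at either time point, and the nearest RNA pol II peak of any of them was 168265 bp away, on chromosome 5 before weaning. Their distances to older H3K9ac ran from 1679 bp on chromosome 6 to 54838 bp on chromosome 5.

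The 12 members that touched RNA pol II are few enough to be given in full, a choice made after their values were seen. Of these, 10 had H3K27ac at both time points and RNA pol II before weaning only. By distance to older H3K9ac they fell into 2 sets, a split also made after the values were seen. In the first set, 6 members lay within 636 bp of an older peak. They were at chromosome 3, 69382263 to 69382464 (114 bp), chromosome 14, 20741680 to 20741879 (230 bp), chromosome 2, 121817095 to 121817365 (375 bp), chromosome 11, 87897583 to 87897810 (429 bp), chromosome 15, 56432598 to 56432828 (456 bp), and chromosome 19, 36233515 to 36233942 (636 bp). At these sites RNA pol II and H3K27ac were present before weaning with H3K9ac next to them, and the H3K9ac peak after weaning lay on the RNA pol II position.

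The other 4 of these members lay farther from older H3K9ac. They were at chromosome 3, 471794 to 471993 (51135 bp) and 33621362 to 33621561 (60494 bp), chromosome 1, 131351247 to 131351617 (63444 bp), and chromosome 15, 41402444 to 41402779 (185405 bp). The H3K27ac peak at the second of these sites was 2459 bp before and 1914 bp after weaning. The remaining 2 members with RNA pol II had no H3K27ac at either time point, and they lay at chromosome 20, 71319742 to 71320017, and chromosome 17, 51436482 to 51436709.

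The member on chromosome 17 was the only one with RNA pol II after weaning, in a peak at 51436636 to 51437077 that is 442 bp wide. RNA pol II was there before weaning as well, in a peak of 200 bp. This member lay 1462 bp from an H3K9me3 peak before and 1485 bp from one after weaning, and inside the stretch from 50 to 52 Mb on that chromosome. That stretch held 82 of the 142 H3K9ac peaks of chromosome 17 after weaning, of which 57 were gained on H3K9me3, 24 were kept on H3K9me3 and 1 was a member. Of the members that did not touch RNA pol II after weaning, 917 had such a peak on their chromosome, at a median of 5056989 bp. Another 55 lay on chromosomes without one, and 3 were within 1 kb of one. RNA pol II before weaning lay a median of 347981 bp (305127 to 393057) from the 961 members that did not touch it, with 9 within 1 kb.

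Members without any other active mark mostly had one within 10 kb. No H3K27ac or RNA pol II peak of either time point touched 235 members (24.2%, 21.6 to 26.9), beside 11.9% of all H3K9ac peaks after weaning. When older H3K9ac was counted too, 167 members (17.2%, 14.9 to 19.7) had no active peak from the other lists within 1 kb, beside 8.42% of all H3K9ac peaks after weaning, 63 (6.47%, 5.09 to 8.20) none within 10 kb, beside 3.24%, and 3 (0.308%, 0.105 to 0.903) none within 100 kb, beside 0.141%. By the rule kept peaks always have older H3K9ac, but without it the shares were close to these, at 17.5% of the members and 8.60% of the whole list within 1 kb and at 6.58% and 3.34% within 10 kb. The rule keeps members off H3K9me3, and the nearest H3K9me3 peak lay at a median of 917416 bp before and 425057 bp after weaning. These distances are not given for other H3K9ac peaks, so they have no background to be read against. Before weaning 2 members and after weaning 6 had an H3K9me3 peak within 1 kb.

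Members were found on all 30 chromosomes with H3K9ac peaks (1 to 29 and X), and most were single. The median gap between neighbouring members was 754277 bp, and 14 of 943 gaps were under 1 kb. Chromosome 3 had the most, 69 members, followed by chromosome 11 with 66, chromosome 5 with 59 and chromosome 19 with 56. The share of a chromosome's H3K9ac peaks that were members was highest on chromosome 20, with 23 of 31 (74.2%, 56.8 to 86.3), and lowest on chromosome 17, with 22 of 142 (15.5%, 10.5 to 22.3). Chromosome 17 also held 69 of the 212 gained peaks on H3K9me3, which the rule leaves out. Chromosome 9, with 19 of 62 (30.6%, 20.6 to 43.0), held 23 of those, and chromosome 18, with 29 of 92 (31.5%, 22.9 to 41.6), held 5 and had 53 kept peaks.

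**Figure D5:**
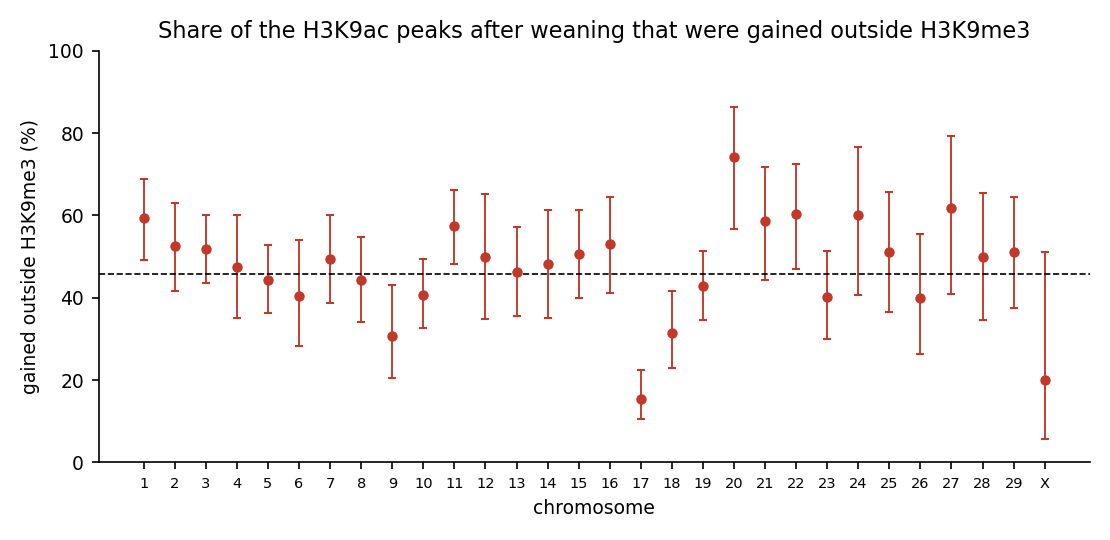
Points give, for each chromosome, the percentage of its H3K9ac peaks after weaning that were gained outside H3K9me3, with 95% Wilson intervals, and the dashed line is the share over all chromosomes (45.7%). Chromosome 17 lies lowest at 15.5% and chromosome 20 highest at 74.2%.

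The share of members that touched H3K27ac after weaning was lowest on chromosome 20, with 6 of 23 (26.1%), followed by chromosome 27 with 4 of 13 (30.8%). On chromosome 29 it was 19 of 25 (76.0%) and on chromosome 5 it was 42 of 59 (71.2%). The 2 members on X both touched H3K27ac after weaning, too few for a share. The median distance to older H3K9ac was 2643 bp on chromosome 7, the lowest of all chromosomes, and 67652 bp on chromosome 6, the highest. Chromosomes are not replicates, and these orders among 30 of them were not tested.

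Genes and bases of these regions are not given, because the positions are on UMD3.1 and no genome or annotation of that build was used here. For the same reason the tissue could not be checked against marker genes.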

How the data were processed

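ChIP-seq peak lists of rumen epithelial tissue were used, with target and time point taken from the labels. The authors discarded reads failing the sequencer's filter, aligned the rest with BWA to UMD3.1.1 (UMD3.1 in the submitters' processing notes, which also name Trim Galore 0.4.1), kept unique alignments with fewer than 2 mismatches, and called peaks with MACS2 against the shared input, apparently 1 library at a time. The deposited values are positions in bp, with no height, score or p-value. Depth is not in the lists.

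Positions were read as 1-based with both ends included, and peaks touched when they shared at least 1 bp. Shares have Wilson intervals, differences of shares Newcombe intervals, and medians order-statistic intervals, all at 95%, computed with Python 3.11.15, numpy 2.4.6, pandas 2.3.3 and scipy 1.17.1. They cover counting error only. The interval functions were tested on simulated data. Regions named were the 5 widest members, the 3 nearest to and 3 farthest from older H3K9ac, members touching H3K27ac and RNA pol II at both time points (0 found), and members on RNA pol II peaks after weaning wider than 500 bp (0 found). Members, rules and comparisons were chosen with earlier results of these data known. Lists of genes could not be matched without an annotation of the build.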

Additional observations from a re-analysis of the deposited data

How the results depend on the processing

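Of 126 recomputed values 89 stayed within the interval of the reported value (for the count, within a factor of 1.5), 35 moved and 2 reversed. Both reversals came with a reciprocal overlap of 50%. The differences other than that from kept peaks after weaning were recomputed after the data were seen. Cut to its 2127 widest peaks (429 bp or more), the older H3K9ac list left 1490 gained peaks, with H3K27ac before weaning at 78.5%, H3K27ac after weaning at 66.7%, RNA pol II before weaning at 3.49%, a median distance of 182352 bp, a median width of 234 bp and differences from kept peaks of -21.5 points before and -27.6 after weaning and from lost peaks of -16.7 after weaning. This setting leaves fewer and wider older peaks, and the parts of number and width cannot be told apart. Counting peaks within 1 kb as touching in the rule gave 800 members, 63.4% and 51.4% with H3K27ac before and after weaning, a median distance of 26307.5 bp, and differences before weaning of -34.3 points from kept and -26.4 from lost peaks. Without members of the lowest width these shares were 71.3% and 58.8%, the median width 244 bp the differences from kept peaks -27.7 and -33.0 points and those from lost peaks -18.8 and 4.46 points. A reciprocal overlap of 50% gave 26.3% and 26.4%, 0% with RNA pol II after weaning, differences from kept peaks of 13.8 points before (reversed) and -13.8 after weaning, from lost peaks of -0.916 and -8.53 points, and from gained peaks on H3K9me3 after weaning of -9.91 points (reversed). Extending the other marks by 1 kb gave 76.3% and 66.6%, 2.16% with RNA pol II before weaning, and differences from kept peaks of -23.1 and -28.8 points and from lost peaks before weaning of -18.2 points. Without the chromosome 17 stretch RNA pol II after weaning was at 0%. With only the H3K9me3 list after weaning in the rule, a setting added after the data were seen, it was at 0.709%, 7 of 987 members. The cause of the other shifts was not tested. No paired analysis was possible because each target and time point has 1 library. Peak lists without depth or height do not show whether a missing peak reflects a missing mark.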
